A study of Mus musculus with 2 samples.

Results

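The DNA repair and damage checkpoint genes described here are 45 mouse genes, taken from a list of names. They were grouped by the pathway in which each acts, as 9 genes of base excision repair, 4 of mismatch repair, 16 of recombination and interstrand crosslink repair, 7 of damage sensing and checkpoint signalling, 5 of nucleotide excision repair and 4 of end joining. A probe could be matched to 44 of them, 43 had a ratio between the arrays, and 59 probes stood for them among probes for 20660 named genes. They were measured in pre CFU-E, erythroid-committed progenitors upstream of the colony forming unit-erythrocyte, sorted from bone marrow as Lin- cells with no or low FCgRII/III and low CD41, which were c-Kit+ and Sca1- and carried endoglin and CD150.

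The WT group and the ESAM-KO group were both C57BL/6 mice of 8 to 12 weeks, the latter lacking endothelial cell-selective adhesion molecule in all tissues, blood and vessel cells alike. Every mouse received a single injection of 120 mg/kg of 5-fluorouracil (5-FU) and was killed on day 8, so both groups carry the drug, and no untreated cells were analysed here. Cells of 3 mice per genotype were pooled, and 1 array was hybridised for each pool, which means that no value below has a replicate, a spread between samples or a p-value. A difference between genotypes therefore cannot be told apart from a difference between pools, sorts or amplifications.

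Cells remove damaged bases, mispaired bases, bulky adducts and broken ends by separate pathways. DNA glycosylases cut out single bases in base excision repair, nucleotide excision repair removes a stretch around a bulky lesion, and breaks are either rejoined directly or copied from the sister chromatid. 5-FU blocks thymidylate synthase, so that uracil and fluorouracil enter DNA, where glycosylases can remove them. Stalled replication forks and breaks activate the kinases ATR and ATM, which signal through CHK1 and CHK2 to hold the cell cycle. Marrow progenitors divide fast, and inherited defects of the Fanconi anemia genes are known for marrow failure.

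Each value is the processed intensity of a probe as the scanner software wrote it. Ratios of ESAM-KO over WT were taken after each array was scaled to the 75th percentile of its own spots (201.4 for WT and 251.1 for ESAM-KO), which puts every log2 ratio 0.32 below that of the printed intensities. Scaling by the array medians instead (median scaling) puts ratios 0.13 lower still, so the direction of a ratio smaller than these shifts rests on the scaling. The scanner software's error of a log2 ratio, 0.20 in the median over the members, covers the noise of a spot and not that between pools. A gene was read at its brightest probe, and a probe that was not well above background in WT gave only a lower bound for the ratio.

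The probe of the targeted gene, Esam, read 27.4 in WT and 20.6 in ESAM-KO, giving a log2 ratio of -0.73 with a scanner error of 0.31, so the arrays check the genotypes only weakly. Erythroid genes were present on both arrays, with log2 ratios of -0.34 for Gata1, -0.32 for Klf1, -0.10 for Epor, 0.32 for Tal1, 0.89 for Tfrc and -0.90 for Gfi1b. Of the genes behind the sort, Kit (-0.36), Eng (-0.80), Slamf1 (0.05), Itga2b (-0.59) and Fcgr3 (-0.17) were within 2-fold, and Fcgr2b was well above background on neither. Ly6a, which encodes the Sca1 that the gate excludes, read 61.1 in WT and, in ESAM-KO, was not well above background, so it was at least 5.79-fold lower there. Neutrophil genes differed widely between the arrays. All 10 were lower on the ESAM-KO array (median log2 ratio -3.36, from -4.68 for Ctsg to -1.64 for Prtn3), and their summed scaled signal was 297 in WT and 39.9 in ESAM-KO. All were well above background on both arrays. Mast cell, basophil and eosinophil genes summed to 8.15 and 0.905 on the same scale, with 3 of 8 lower and 1 higher by over 2-fold. Most of that sum came from Prg2, which read 1223 in WT and 113 in ESAM-KO, and Epx (296 and 19.5). Cpa3, Mcpt8 and Fcer1a were well above background on neither array. B cell genes summed to 2.91 and 0.928, with 4 of 8 lower. The summed signals of macrophage genes (34.0 and 30.3), T and NK cell genes (12.2 and 14.2), megakaryocyte genes (10.6 and 11.8) and endothelial genes (11.8 and 9.97) were closer. Most of the macrophage sum came from Csf1r, which read 6554 in WT and 7310 in ESAM-KO. Nkg7 (1833 and 2465) made up most of the T and NK cell sum, and Kdr (2056 and 2345) most of the endothelial sum. These 3 sums therefore say little about the other genes of their lists. Single genes of these lists differed more, and in both directions. By over 2-fold, 1 macrophage gene was higher and 1 lower, as for endothelial genes. Of the megakaryocyte genes 1 was higher and 2 were lower, and of the T and NK cell genes 1 was lower. On the ESAM-KO array Vcam1 was 7.36-fold, Pecam1 3.98-fold and Cd3d at least 3.75-fold lower. Vwf was 2.42-fold, C1qa 2.28-fold and Tek at least 2.14-fold higher there. Fewer cells of a type and less RNA per cell cannot be told apart in such samples. These markers differed between the same 2 arrays as every repair gene below, and their part in the results was not tested.

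Most repair genes were within 2-fold between the arrays. Of the 43 members with a ratio, 6 (14.0%) were past 2-fold, beside 15.4% of the 14136 named genes with a ratio. The members higher on the ESAM-KO array by over 2-fold were Chek1, Tdg, Rad54l and Polb, and 6.99% of all named genes were higher by as much. Those lower by over 2-fold were Xpa and Xpc, and 8.43% of all genes were lower by as much. The members' share was therefore near that of the array as a whole. Over the 41 members measured on both arrays the median log2 ratio was 0.04, turning to -0.09 with median scaling, and over the 12615 genes so measured it was -0.02. Members lay on either side of equal scaled signal, 21 above and 20 below. Without scaling 30 of the 41 were above, as were 9038 of the 12615 genes. The ratio was beyond 2 scanner errors for 22 of the 41 members and for 5263 of the 12615 genes.

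**Figure D1:**
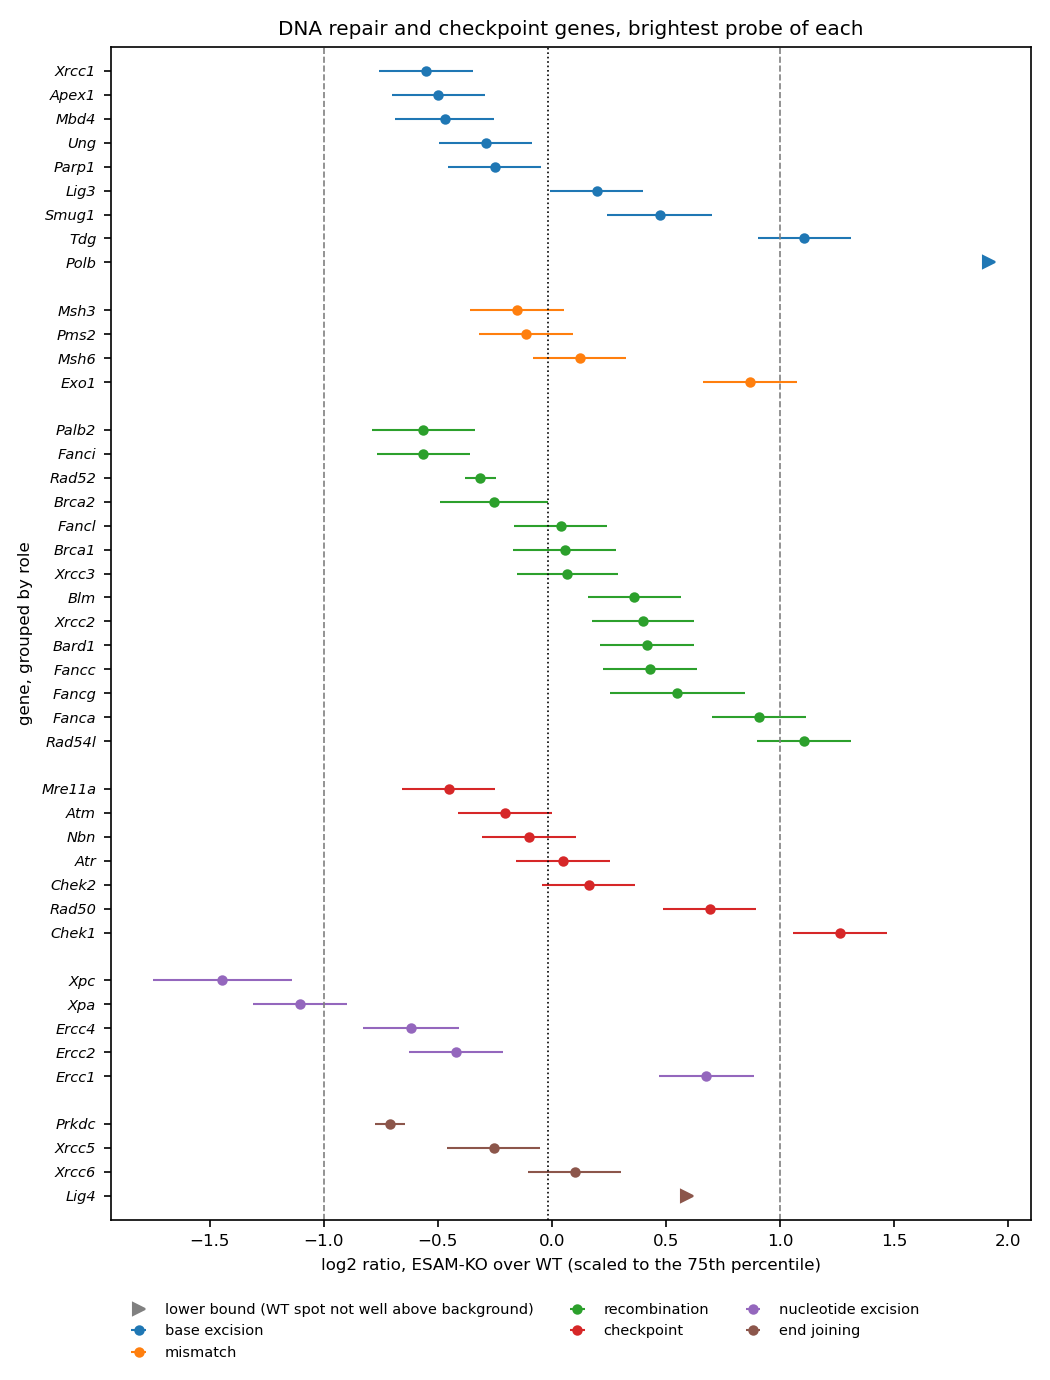
Log2 ratio of ESAM-KO over WT (x axis, arrays scaled to the 75th percentile) for the brightest probe of each of 43 repair genes, ordered by role. Points are single arrays compared with each other, bars are 1 scanner error, triangles are lower bounds, dashed lines mark 2-fold and the dotted line is the median of all genes, -0.02. Chek1, Tdg, Rad54l and Polb lie right of 2-fold, Xpa and Xpc left of it, and nucleotide excision genes other than Ercc1 lie below 0.

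The checkpoint gene Chek1 had the highest ratio of the 41 members measured on both arrays. It encodes CHK1, the kinase that ATR activates at stalled forks. Its probe (NM_007691) read 155 in WT and 464 in ESAM-KO, giving a log2 ratio of 1.26 with a scanner error of 0.21, or 2.40-fold higher. With normexp background correction the log2 ratio was 0.95, just under 2-fold. The other checkpoint genes were within 2-fold. Rad50, the coiled-coil ATPase of the break-sensing MRE11 complex, read 562 and 1131 (0.69), and its other probe read 390.1 and 604 (0.31), so both were higher on the ESAM-KO array. Its partners in that complex had ratios below 0. Mre11a, the nuclease, read 867 and 790.4 (-0.45), and Nbn, which brings the complex to ATM, read 246 and 286 (-0.10). The kinases upstream and beside CHK1 were close to equal scaled signal, with log2 ratios of 0.05 for Atr, -0.21 for Atm and 0.16 for Chek2. The median over the 7 checkpoint members was 0.05, and it turned to -0.08 with median scaling.

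In base excision repair Tdg and Polb were higher on the ESAM-KO array by over 2-fold. TDG is a glycosylase that removes thymine and uracil paired with guanine and also acts in DNA demethylation. The brightest Tdg probe (NM_172552) read 255 in WT and 683 in ESAM-KO, giving a log2 ratio of 1.11 with a scanner error of 0.20, or 2.15-fold. All 3 probes of Tdg were higher on the ESAM-KO array. The next read 33.1 and 155 (1.91), and the dimmest, which in WT was not well above background (6.00), read 105 in ESAM-KO and was at least 6.67-fold higher. At the brightest probe the log2 ratio was 0.98 with median scaling and 0.97 with normexp, both just under 2-fold. Polb encodes the polymerase that fills the gap left in base excision repair. Its probe (NM_011130) was, at 15.1, not well above background in WT and read 71.2 in ESAM-KO, which puts it at least 3.78-fold higher. The bound was 0.69 on the log2 scale with normexp.

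The other base excision genes were within 2-fold, and 5 of the 8 measured on both arrays were lower on the ESAM-KO array. Xrcc1, a scaffold that gathers the repair enzymes, had the lowest ratio of the group and read 2340 in WT and 1989.8 in ESAM-KO (-0.55). Apex1, the endonuclease that cuts the strand after base removal, read 7825 and 6904 (-0.50). Among the other glycosylases the ratios went both ways. Ung, the main uracil-DNA glycosylase, read 184163 in WT and 187853 in ESAM-KO, far brighter than any other member, with a log2 ratio of -0.29. Mbd4 was at -0.47 and Smug1 at 0.47. Parp1, the break sensor, was at -0.25. For Lig3, the ligase that works with XRCC1, the brighter probe gave 0.20 and the other -0.27. The median of the 8 genes was -0.27, and it was 0.05 without scaling.

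Of the recombination genes Rad54l was past 2-fold. RAD54L is a motor protein that remodels DNA during recombination. Its probe (NM_009015) read 418 in WT and 1121 in ESAM-KO, giving a log2 ratio of 1.10 with a scanner error of 0.20, or 2.15-fold higher. With median scaling the log2 ratio was 0.98. Rad54l and Tdg lay just past 2-fold on the higher side, and Fanca and Exo1 just short of it. Fanca, of the Fanconi anemia core complex, read 153 and 358 (0.91). Of the other core complex genes among the members, Fancg (0.55) and Fancc (0.43) were higher by less. Fancl was near equal scaled signal, at 0.04 with its other probe at 0.12. The brighter Fancl probe turned to -0.09 with median scaling. With normexp Fancg was at -0.04. Fanci, a subunit of the clamp that the core complex marks with ubiquitin, lay below equal scaled signal. It read 369 and 311 (-0.56), whereas the probe of its partner Fancd2 was not well above background at 11.4 and 10.6.

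The strand exchange genes beside Rad54l were within 2-fold at their brightest probes. Xrcc2 and Xrcc3, which act in recombination, had log2 ratios of 0.40 and 0.07, and no probe was matched to Rad51c. Blm, the helicase that dissolves crossed strands, read 2427 and 3888 (0.36). Brca1, a ubiquitin ligase that acts in end resection, read 60.4 and 78.3 (0.06), and Brca2, its tumor suppressor counterpart in recombination, was at -0.25. Palb2, the bridge between BRCA1 and BRCA2, had the lowest ratio of the group, with 65.5 in WT and 55.2 in ESAM-KO (-0.56). Of the 14 recombination genes measured on both arrays 10 were above equal scaled signal, and their median was 0.21, from 0.03 with normexp to 0.53 without scaling.

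Of the 5 nucleotide excision repair members 4 were below equal scaled signal, with a median log2 ratio of -0.62, and Xpa and Xpc were lower by over 2-fold. The further genes of this pathway that are not members lay the other way, with 9 of 15 above equal scaled signal and a median of 0.48. The median of the 5 members stayed below 0 under every scaling, from -0.75 with median scaling to -0.30 without scaling. XPA gathers the incision complex at the damaged strand. Its brighter probe (NM_011728) read 2623 in WT and 1521 in ESAM-KO, giving a log2 ratio of -1.10 with a scanner error of 0.20, or 2.15-fold lower. The other Xpa probe read 217 and 116 (-1.23), so both were past 2-fold the same way. Unscaled intensities put Xpa at -0.79. XPC recognises the distorted helix in DNA that is not being transcribed. The Xpc probe (NM_009531) read 44.2 and 20.2, a log2 ratio of -1.44 with a scanner error of 0.31, or 2.72-fold lower. The lowest intensity well above background was 12.6 in WT and 13.2 in ESAM-KO, so the ESAM-KO reading was dim, and with normexp the log2 ratio was -0.60.

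The genes of the cutting step lay on opposite sides of equal scaled signal. ERCC4 is the nuclease that cuts 5′ of the lesion and ERCC1 is its obligate partner. Ercc4 read 135 in WT and 109 in ESAM-KO (-0.62, or 1.54-fold lower). Ercc1 read 145 and 289 (0.68), the only gene of the group that was higher on the ESAM-KO array. Ercc2, the helicase that opens the helix, read 198 and 184 (-0.42).

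Promoters are shown for the members past 2-fold that the promoter table holds, to let the letters be seen beside the ratios. The table was made from RefSeq for GRCm38.p6, gives 250 bases before to 50 after each start, and held 40 windows for 37 of the 45 genes, without Polb and Xpc. Capitals mark CCAAT or the E2F core letters GGCGGGAA on either strand. The windows are chr9:36726609-36726908 on the minus strand for Chek1, chr4:116123640-116123939 on the minus strand for Rad54l, chr10:82629588-82629887 on the plus strand for Tdg and chr4:46196262-46196561 on the minus strand for Xpa. A further window of Rad54l is offset by 1 base.
Chek1: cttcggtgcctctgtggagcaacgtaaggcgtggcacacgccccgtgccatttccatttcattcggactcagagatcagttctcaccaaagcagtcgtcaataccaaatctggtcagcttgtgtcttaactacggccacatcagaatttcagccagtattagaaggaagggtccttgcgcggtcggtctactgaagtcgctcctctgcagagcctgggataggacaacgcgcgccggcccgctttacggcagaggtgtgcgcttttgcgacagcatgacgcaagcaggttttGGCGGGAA
Rad54l: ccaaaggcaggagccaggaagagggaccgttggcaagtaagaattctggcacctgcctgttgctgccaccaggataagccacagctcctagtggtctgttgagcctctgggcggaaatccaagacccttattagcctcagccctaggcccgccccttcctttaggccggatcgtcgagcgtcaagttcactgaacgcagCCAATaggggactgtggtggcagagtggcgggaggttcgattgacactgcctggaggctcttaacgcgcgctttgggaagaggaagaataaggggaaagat
Tdg: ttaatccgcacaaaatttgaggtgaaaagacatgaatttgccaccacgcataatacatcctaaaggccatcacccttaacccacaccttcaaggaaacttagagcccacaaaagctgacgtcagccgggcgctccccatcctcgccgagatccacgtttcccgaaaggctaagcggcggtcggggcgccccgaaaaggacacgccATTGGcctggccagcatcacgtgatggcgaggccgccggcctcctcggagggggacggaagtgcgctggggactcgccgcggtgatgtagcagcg
Xpa: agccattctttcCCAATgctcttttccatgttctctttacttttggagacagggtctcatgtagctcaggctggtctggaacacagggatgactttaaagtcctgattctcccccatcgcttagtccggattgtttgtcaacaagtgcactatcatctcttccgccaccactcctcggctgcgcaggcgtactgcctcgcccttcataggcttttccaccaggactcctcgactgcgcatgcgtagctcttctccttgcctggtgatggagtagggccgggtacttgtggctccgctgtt
In these windows Chek1 alone holds GGCGGGAA, within the last bases of its window, and CCAAT or its reverse complement is found in those of Rad54l, Tdg and Xpa.

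The letters of E2F sites and of the CCAAT box were searched on both strands, chosen after the sequences had been seen. The E2F letters TTTCCCGC, TTTCGCGC, TTTGCCGC and TTTGGCGC were found in 9 of the 40 windows and in 2.26% of all 32851 windows of the table. The genes with a match were Bard1, Brca2, Chek2, Fancg, Msh3, Msh6, Rad51c and Xrcc6. None of those with a ratio was past 2-fold at its brightest probe. Rad51c has 2 of the 9 windows and no ratio. GGCGGGAA, which overlaps the reverse complement of TTTCCCGC, was found in 4 windows, 1 each for Chek1, Mbd4, Msh6 and Rad51c, and in 2.19% of all windows. CCAAT was found in 23 of the 40 windows, against 37.4% of all. A match is a description of these letters, and the genes with the E2F letters and a ratio lay from -0.25 for Brca2 to 0.55 for Fancg, and those with GGCGGGAA from -0.47 for Mbd4 to 1.26 for Chek1, on either side of equal scaled signal.

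In mismatch repair Exo1, the exonuclease that removes the strand with the error, had the highest ratio. It read 286 in WT and 652 in ESAM-KO, giving a log2 ratio of 0.87, and was past 2-fold at 1.19 without scaling. Msh6, which recognises single mispairs, was at 0.12, and Pms2, the endonuclease of the pathway, at -0.11 with its other probe at -0.10. Msh3, which recognises small loops, had the lowest ratio of the group at its brightest probe (355 and 398, or -0.15). The median of the 4 genes was 0.00.

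End joining genes were within 2-fold. Prkdc, the catalytic subunit of the DNA-dependent protein kinase, read 175 in WT and 134 in ESAM-KO (-0.71) as the mean of 10 spots. At 1.63-fold lower it was, with Ercc4, the nearest member within 2-fold on the lower side. Xrcc6 and Xrcc5 encode the Ku subunits that hold the broken ends. Xrcc6 read 1855 and 2479 (0.10), the highest ratio of the 3 end joining genes measured on both arrays. The Xrcc6 ratio turned to -0.03 with median scaling, and Xrcc5 was at -0.26. The probe of Lig4, the ligase that seals the break, was, at 9.80, not well above background in WT and read 23.6 in ESAM-KO, at least 1.51-fold higher. The median of the 3 genes measured on both arrays was -0.26, and 0.06 without scaling.

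Repeated spots of a probe show how far a reading varied within an array, since Atm, Prkdc and Rad52 had probes printed at 10 positions. The Prkdc spots ran from 164 through a median of 173 to 188 on the WT array, and from 99.2 through 134 to 159 on the ESAM-KO array. No ESAM-KO spot reached the lowest WT spot, and the log2 ratios of the spots lay between -1.09 and -0.54 (SD 0.18 over spots). For Atm the repeated probe, with a mean log2 ratio of -0.08, is not the brightest one, whose single spot gave the -0.21 above. The repeated probe read from 121 through 127 to 136 on the WT array and from 139 through 149 to 171 on the ESAM-KO array. These unscaled intensities did not overlap either, yet the scaled log2 ratios ran from -0.28 to 0.13 and so lay on either side of 0. Rad52, which helps to anneal single strands, kept 9 of its 10 spots. They read from 176 through 208 to 225 on the WT array and from 187 through 205 to 238 on the ESAM-KO array, and the ranges overlapped. The scaled log2 ratios of Rad52 spots were between -0.47 and -0.08. These spots share 1 RNA pool per genotype, so their spread leaves out any difference between pools.

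**Figure D2:**
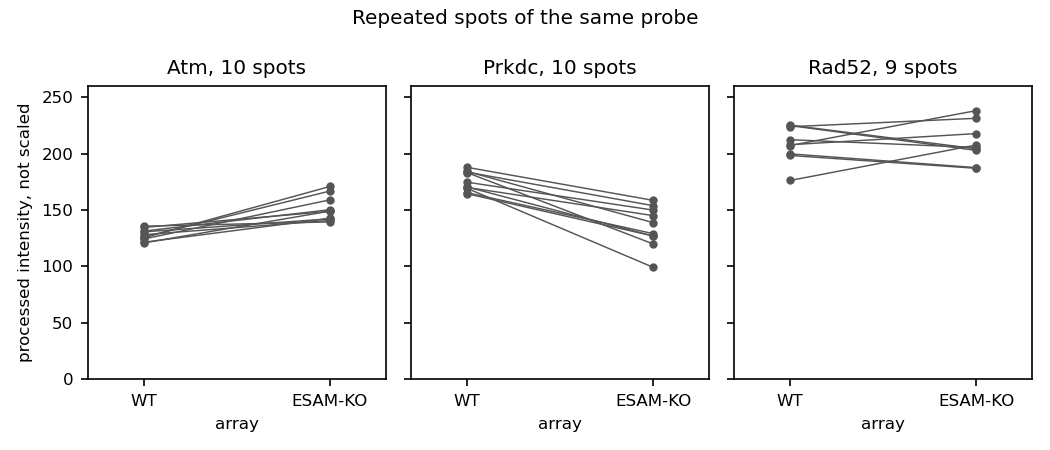
Processed intensity (y axis, not scaled between arrays) of each spot of the probes printed at 10 positions for Atm, Prkdc and Rad52, on the WT and the ESAM-KO array. Lines join the spots at the same position, and the Prkdc spots read 164 to 188 on the WT array and 99.2 to 159 on the ESAM-KO array.

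Different probes of a gene are the other repeated reading on these arrays. More than 1 probe was present for 12 members, and for 9 of these at least 2 probes were well above background on both arrays. The median difference between the highest and the lowest log2 ratio was 0.38 over those 9 members and 0.47 over the 3056 named genes with such probes. Probes shared a direction for 6 of the 9, namely Atm, Fancl, Pms2, Rad50, Tdg and Xpa, and differed in direction for Bard1, Lig3 and Msh3. A difference over 1 was found for Msh3, as for 23.7% of the 3056 genes.

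Probes of opposite direction that were far apart leave several members without a clear ratio. The probes of Msh3 read 355 and 398 (-0.15), 113 and 162 (0.20), and 154 and 85.3 (-1.17, or 2.25-fold lower) on the WT and ESAM-KO arrays. Bard1, the partner of BRCA1 in its ubiquitin ligase, had probes at 171 and 285 (0.42) and at 191 and 173 (-0.46), and a dim probe that read 11.5 and 49.3, at least 3.14-fold higher on the ESAM-KO array. Palb2, lower at its brightest probe, had another that read 12.2 and 71.6, at least 4.57-fold higher. With the mean of its probes Palb2 turned to 0.81. The dim probe of Xrcc2 gave a bound of 0.04, and the dim probe of Fancc was well above background on neither. Where in each transcript these probes lie is not reported here.

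**Figure D3:**
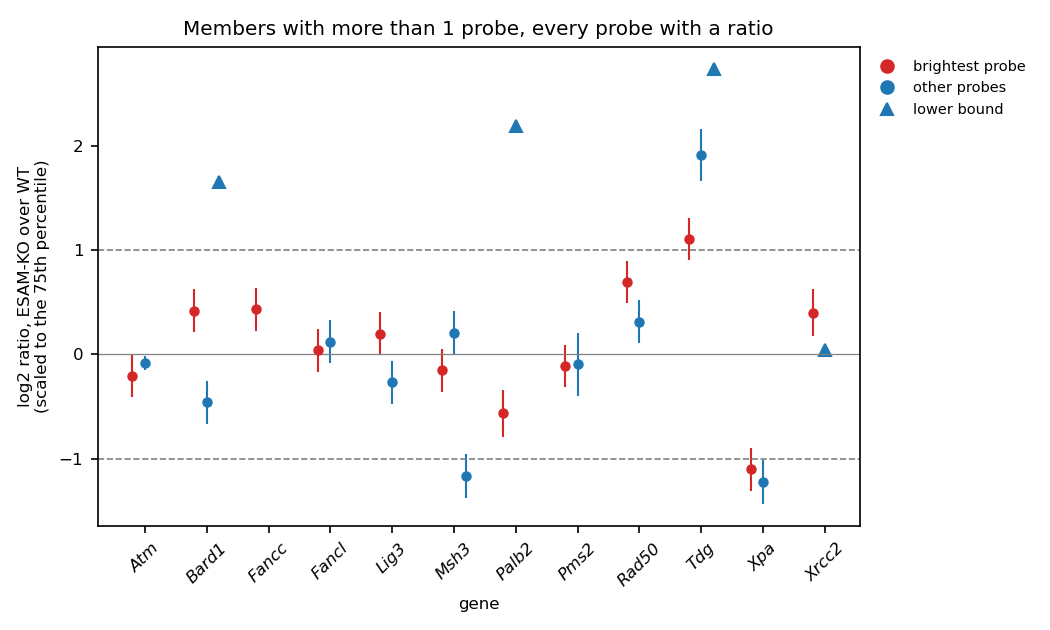
Log2 ratio of ESAM-KO over WT (y axis, scaled) for each probe with a ratio of the 12 members that have more than 1 probe. Red points are the brightest probe, blue points the others, triangles lower bounds, bars 1 scanner error and dashed lines 2-fold. The Xpa probes lie together at -1.10 and -1.23, and all Tdg probes lie above 1. Those of Bard1, Lig3, Msh3 and Palb2 lie on either side of 0.

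Of 104 further repair and checkpoint genes, 102 had a ratio, and 10 were higher and 7 lower on the ESAM-KO array by over 2-fold, together 16.7% beside the 15.4% of all named genes. Their median was 0.02 over the 98 measured on both arrays. Of the 5 checkpoint genes among those past 2-fold, 3 were higher on the ESAM-KO array. Clspn, the adaptor through which ATR activates CHK1, read 25.7 in WT and 101 in ESAM-KO (1.66). Hus1, of the clamp loaded at stalled forks, read 18.6 and 58.4 (1.33). The WT readings of Clspn and Hus1 were dim, and with normexp none of the 104 genes was higher by over 2-fold. Cdc25a, a phosphatase that CHK1 marks for destruction, read 245 and 613 (1.00). In contrast the checkpoint phosphatase Cdc25c read 251 and 89.9 (-1.80), and Fam175a, a BRCA1 complex subunit, read 379 and 209 (-1.18). Over the 21 further checkpoint genes measured on both arrays the median was 0.13.

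The further recombination genes past 2-fold went both ways. Rad51d was at -1.41, and Rmi1 and Rmi2, which bind BLM in the complex that dissolves crossed strands, were at -1.44 and -1.41. The helicase genes Recql4 and Recql5 were higher, at 1.07 and 1.24. Blm itself, at 0.36, lay on the other side of equal scaled signal from its binding partners. The median over 25 such genes was -0.11.

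In the other pathways, Nthl1, a glycosylase for oxidised pyrimidines, was at -1.11, and the 11 further base excision genes had a median of -0.10. The mismatch gene Pms1 was at 1.32. The difference between the nucleotide excision members (median -0.62) and the 15 further genes of that pathway (0.48) was not tested. Among end joining genes Xrcc4, the LIG4 partner, had a bound of 1.03, Aplf was at 1.00, and Polq, the polymerase of the alternative pathway, at 1.02, whereas the gap-filling polymerase gene Poll was at -1.34. The 13 genes of direct reversal and damage tolerance had a median of 0.45, and none was past 2-fold.

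Many repair genes are transcribed as cells enter S phase, so cell cycle genes are given beside them. Of 34 such genes 33 were measured on both arrays, 25 were above equal scaled signal, and the median was 0.32. Tyms, the thymidylate synthase that 5-FU blocks, read 46.8 in WT and 154 in ESAM-KO (1.40). Ccne1, the cyclin of the entry into S phase, read 114 and 423 (1.57). No other cell cycle gene was past 2-fold. Pcna, the sliding clamp of replication and repair, read 4571 and 8821 (0.63). The S phase genes had a median of 0.28 over 17 genes and the G2 and M phase genes of 0.42 over 16. Mitotic markers varied, with 0.72 for Ccnb1, 0.02 for Mki67 and -0.17 for Top2a. The part of the cell cycle or of the neutrophil genes in the ratios of the repair genes was not tested.

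**Figure D4:**
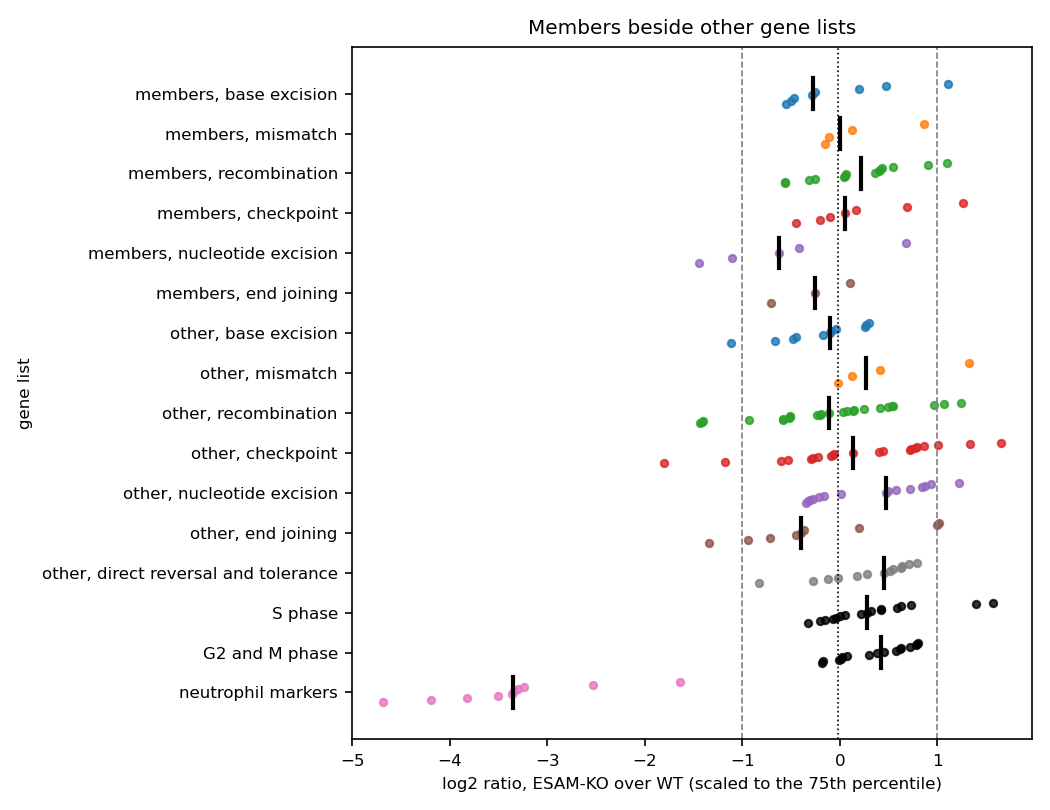
Log2 ratio of ESAM-KO over WT (x axis, scaled) for genes measured on both arrays, by list. Points are genes, black bars list medians, dashed lines 2-fold and the dotted line the median of all genes. Member medians run from -0.62 for nucleotide excision to 0.21 for recombination, cell cycle genes lie at 0.28 and 0.42, and neutrophil genes at -3.36.

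Of the 43 members with a ratio, 34 kept their side of 2-fold under every alternative tried, and 25 kept their sign. The 9 that crossed 2-fold were Chek1, Exo1, Fanca, Polb, Rad50, Rad54l, Tdg, Xpa and Xpc. They include all 6 members reported as past 2-fold, so the 34 were all within 2-fold and none of the 6 stayed past 2-fold throughout. Chek1, Polb and Xpc crossed it with normexp alone. Without scaling Fanca (1.23), Exo1 (1.19) and Rad50 (1.01) were also past 2-fold. All 9 kept their direction.

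**Figure D5:**
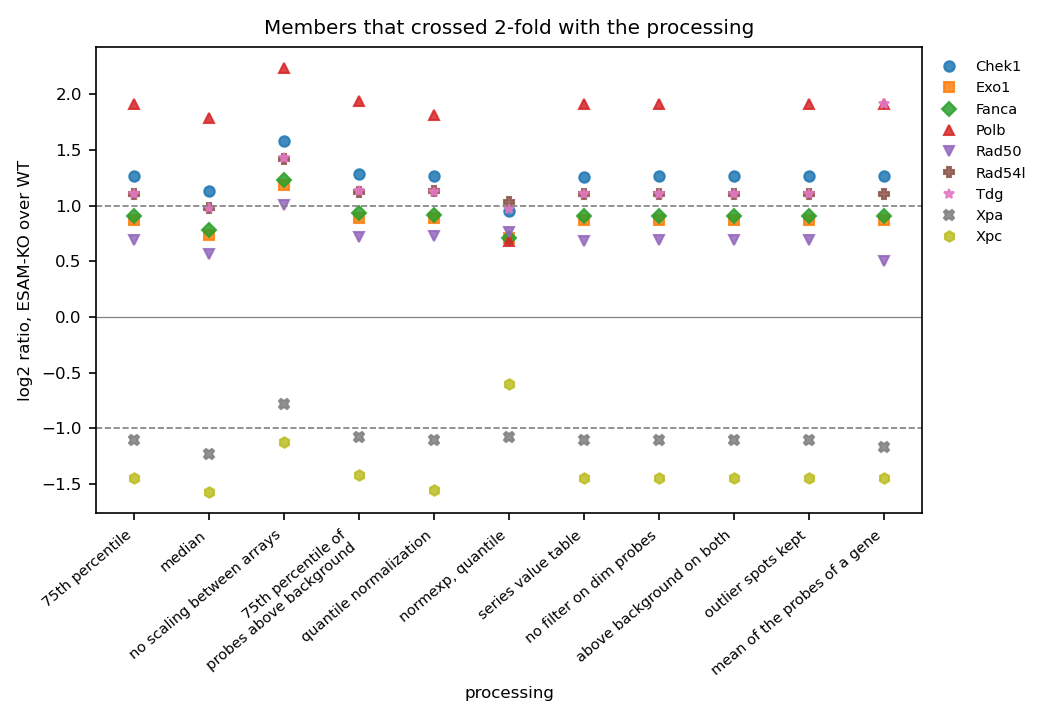
Log2 ratio of ESAM-KO over WT (y axis) of the 9 members that crossed 2-fold, as reported (left) and under each alternative processing (x axis). Dashed lines mark 2-fold. Polb is a lower bound and has no value where a gene had to be above background on both arrays. Normexp moved Polb to 0.69 and Xpc to -0.60, and no point crosses 0.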

How the data were processed

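RNA of sorted pre CFU-E, pooled from 3 mice per genotype, was amplified, labelled with Cy3 and hybridised to 1 array per genotype. The authors deposited the processed intensity of each spot from Agilent Feature Extraction 10.10.1.1, corrected for background within the array and not scaled between arrays, and a series table with the same intensity at 3 digits. The log2 of the intensity minus that of the array's 75th percentile was used, without control spots and without 254 spots marked as unreliable by the software, leaving 59051 spots of 55680 probes. Spots of a probe were averaged on the log2 scale. Signal well above background (more than 50% of a probe's spots) was found for 57.3% of WT spots and 61.1% of ESAM-KO spots, and no spot was saturated. Where 1 array lacked it, the ratio is a bound, in which the dim side took the probe's own intensity or, if larger, the lowest one well above background. Probes were named through RefSeq accessions without versions (GRCm38.p6, names only), which named 27235 probes (48.9%), and a gene was read at its probe with the highest mean signal.

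No test was possible with 1 array per genotype, so the counts past 2-fold, the criterion of the authors, are descriptions. Precision is limited by having 1 array per genotype. The members and the gene lists were chosen with earlier results of these data known. Full values were given for members past 2-fold at any probe, for those with far apart probes, for those next to 2-fold and for the extremes of each pathway. Nucleotide excision was separated from the other pathways. Values of some genes of the further repair list are not reported here one by one. Other scalings, normexp, the series table, other filters, the mean of probes and thresholds of 1.5-fold and 3-fold were tried. Normexp with an offset of 50 used median spot signals, since mean signals are not in the columns used here. The counting was tested on simulated data. Python 3.11.15, pandas 2.3.3, numpy 2.4.6, R 4.3.3 and limma 3.58.1 were used.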

Additional observations from a re-analysis of the deposited data

How the results depend on the processing

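No paired analysis was possible because the WT and ESAM-KO groups hold 1 array each. With arrays set to their medians, 2 members and 5 of the other repair genes were higher by over 2-fold, and of all named genes past 2-fold 66.8% were lower on the ESAM-KO array (751 higher, 1513 lower), compared with 54.7% as reported. Past 2-fold in either direction were then 4 members, beside 16.1% of all genes with a ratio. Without scaling, by construction, ratios lay 0.32 higher. Then 7 members were higher and 1 lower, 24 other repair genes and 7 cell cycle genes were higher, and 28.8% of all genes past 2-fold were lower (1804 higher, 729 lower). Of all genes with a ratio 17.8% were past 2-fold without scaling. The medians were then 0.36 over all members, 0.049 for base excision, 0.32 for mismatch, 0.53 for recombination, 0.37 for checkpoint, -0.30 for nucleotide excision, 0.063 for end joining, 0.34 for the other repair genes and 0.64 for cell cycle genes. With normexp, 2 members were past 2-fold, 1 higher and 1 lower, with 0 other repair genes higher and 3 lower, 1 cell cycle gene higher and a nucleotide excision median of -0.34. Of all genes, 235 were higher and 485 lower (67.4% lower), together 5.09% of those with a ratio. The cause was not tested. By construction, 13 members were past 1.5-fold, with 26 other repair genes higher and 13 lower, and 1 member was past 3-fold, with 1 other repair gene higher and 1 lower. The shares of all genes past 1.5-fold and 3-fold are not reported here, so these counts have no background beside them.

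Of 166 values for groups under the alternatives 138 were the same within the margin used. Of 438 single gene values 380 moved by less than the scanner error, and none reversed among values past 2-fold. Much of this sameness was set by construction. Keeping outlier spots, dropping the filter on dim probes or requiring signal well above background on both arrays left most of these values as reported. The mean of probes could not move a gene with a single probe, and the series table holds the same intensities at fewer digits. These counts therefore say little about stability, and 25 of the 43 members with a ratio kept their sign under every alternative. Readings near 12.6 on the WT array or 13.2 on the ESAM-KO array, the lowest well above background, limit Xpc, Polb, Lig4 and Fancd2. Dim as well were the WT readings of Hus1 (18.6), Fancg (23.3), Pms1 (24.7) and Clspn (25.7), and the ESAM-KO reading of Rmi2 (27.1). The ratios of these genes carry the same limit.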
